A study of Caenorhabditis elegans with 4 samples.

Results

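The LSY-2 binding regions of the left arm of chromosome II are the peaks of the authors' combined list whose midpoint lies at or below base 4900000 of II in genome build WS220. There are 187 of them, out of 640 combined peaks on II and 3669 in all. Binding was measured by ChIP-seq, in which DNA cross-linked to a protein is pulled down with an antibody and sequenced. The series has 4 samples of Caenorhabditis elegans embryos, 2 LSY-2 GFP ChIP samples precipitated with antibodies against GFP and 2 input samples of total genomic DNA. All 4 came from strain OP367, kept at 20 °C as a mixed population of males and hermaphrodites. It carries the allele unc-119(ed3) and the transgene wgIs367, brought in by bombardment, in which lsy-2 is joined to the tags TY1, EGFP and FLAG and which also holds unc-119. The precipitated protein is therefore the tagged transgene product in whole embryos, in which cell types are mixed. In the WBcel235 gene table lsy-2 is on X and unc-119 on III, so neither gene of the transgene lies on II. Peak lists of the 2 ChIP samples and of both together were analysed. The inputs were not analysed here.

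LSY-2 is a C2H2 zinc finger transcription factor, known from the ASE taste neurons, where it is needed to switch on the microRNA gene lsy-6 in the left cell. Worm chromosomes have gene-dense, slowly evolving centres and arms that recombine more, hold more repeats and carry expanded gene families such as those of F-box and MATH domain proteins, many of which are thought to bring substrates to ubiquitin ligases. In the WBcel235 gene table II holds 35 of 37 genes named math, 25 of 35 named bath, 58 of 104 named fbxb, 35 of 48 named fbxc and 14 of 170 named fbxa (8.24%), beside 17.2% of all 19983 protein-coding genes. That table is of another build than the peaks, so no gene was assigned to any region.

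The left arm had few strong LSY-2 regions and several crowded ones. Each peak's name holds a number that was read as its rank, 1 being the strongest. No header or label states this. Of the 187 regions 2 ranked within 100, or 1.07%, against 15 of the 453 on the rest of II and 2.73% of all combined peaks. Within 500 there were 16, or 8.56% (exact Clopper-Pearson 95% interval 4.97% to 13.5%), against 81 or 17.9% (14.5% to 21.7%) on the rest of II and 13.6% of the whole list. Within 1000 there were 38, or 20.3% (14.8% to 26.8%), against 156 or 34.4% (30.1% to 39.0%) on the rest of II and 27.3% of the whole list. The intervals of the left arm and the rest of II did not overlap at 500 or 1000. They count peaks and treat them as independent, and no test was made because the regions were chosen from the same list.

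**Figure D1:**
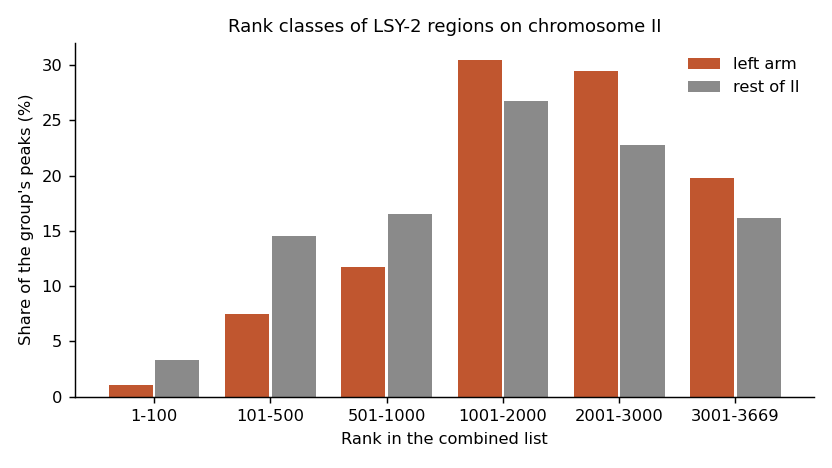
Share of each group's combined peaks (vertical axis, percent) in 6 classes of rank in the combined list (horizontal axis), for the 187 left arm regions and the 453 on the rest of II. The left arm has the smaller share in the 3 strongest classes, 7.49% against 14.6% at ranks 101 to 500, and the larger share in the 3 weakest, 29.4% against 22.7% at ranks 2001 to 3000.

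The median rank was 1981 in the left arm and 1633 on the rest of II, beside 1835 over the whole list. The single replicates gave the same order, which is no separate evidence because the combined list was made from them. Left arm regions had a median rank of 2014 in replicate 1 and 2023 in replicate 2, and those on the rest of II had 1552 and 1460. The density ratio of the left arm to the rest of II was lower for strong regions than for the list as a whole. There were 3.27 combined peaks of rank 1 to 500 per Mb in the left arm and 7.81 per Mb on the rest of II, a ratio of 0.418 (95% interval from counting 0.228 to 0.721), while for the whole list the densities were 38.2 and 43.7 per Mb, a ratio of 0.874 (0.733 to 1.04). In the first 500 ranks of the replicates' own lists the ratio was 0.474 in replicate 1, with 17 peaks in the left arm and 76 on the rest of II, and 0.489 in replicate 2, with 18 and 78.

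The strongest left arm region was II:3076882-3077343, 462 bp wide and rank 13 in the combined list. It ranked 10 in replicate 1 and 21 in replicate 2, and stood far from others, with 88.7 kb free of combined peaks before it and 41.6 kb after it. It was also the widest of the 187. II:4698240-4698687, the next, had combined rank 23 and ranks 23 and 29 in replicates 1 and 2. It is followed by a long step: the third region, II:4376648-4377103, had combined rank 112 and replicate ranks 114 and 103. II:4706340-4706742 had rank 142 (148 and 138 in replicates 1 and 2), and it lies a few kilobases from the region of rank 23.

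The other 12 regions within rank 500 were spread over the whole arm. In rank order they were II:2058990-2059376 (rank 160), II:3523552-3523933 (192), II:1320495-1320773 (239), II:456409-456704 (262), II:4044423-4044690 (271) and II:4518365-4518623 (282). After them came II:3370119-3370346 (330), II:216683-216876 (392), II:255243-255448 (404), II:410946-411158 (424), II:4851713-4851927 (443) and II:2232550-2232787 (445). All 16 had the maximum score in each replicate. Left arm regions of rank 1878 in replicate 1 and of rank 3796 in replicate 2 also held it, so it does not set the 16 apart. The ranks of the 16 ran from 10 to 597 in replicate 1 and from 21 to 457 in replicate 2, and the ratio of replicate 1 rank to replicate 2 rank from 0.476 to 1.50. The midpoints of their replicate peaks lay a median of 7.5 bp apart and at most 35.5 bp.

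The 20 strongest regions were completed by II:2455976-2456257 (rank 501), II:4299344-4299536 (513), II:2565013-2565196 (517) and II:156017-156198 (545). The last of these ranked 858 in replicate 1 and 454 in replicate 2. II:2455976-2456257 ranked 386 in replicate 1 and overlapped no peak of replicate 2, whose nearest peak, II:2456350-2456487 with rank 545, began 92 bases beyond it. That replicate 2 peak falls on the neighbouring combined region II:2456307-2456566, which ranked 1157 in replicate 1. Across this pair of neighbours, then, replicate 1 was stronger on the left and replicate 2 was listed on the right side alone.

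Region width followed rank in an uneven way. The 2 regions within rank 100 were 448 and 462 bp wide, the 14 of ranks 101 to 500 had a median of 263.5 bp, and the 22 of ranks 501 to 1000 one of 186.5 bp. Below that, 48 of 57 at ranks 1001 to 2000 and 54 of 55 at ranks 2001 to 3000 had the list's commonest width of 370 bp, as did all 37 beyond rank 3000. The whole list ran much the same way. Its medians were 279.5 bp at ranks 101 to 500 and 182 bp at ranks 501 to 1000. The commonest width was held by 84.7% of it at ranks 1001 to 2000, 98.2% at ranks 2001 to 3000 and 99.1% beyond. In all, 144 left arm regions had that width, or 77.0% (70.3% to 82.8%), against 291 or 64.2% (59.6% to 68.7%) on the rest of II and 71.1% of the whole list. The narrowest, II:4238078-4238175, measured 98 bp and still ranked 888, with ranks 1057 and 883 in replicates 1 and 2. Within rank classes the shares at the common width were close: 84.2% of left arm regions and 82.6% of those on the rest of II at ranks 1001 to 2000.

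**Figure D2:**
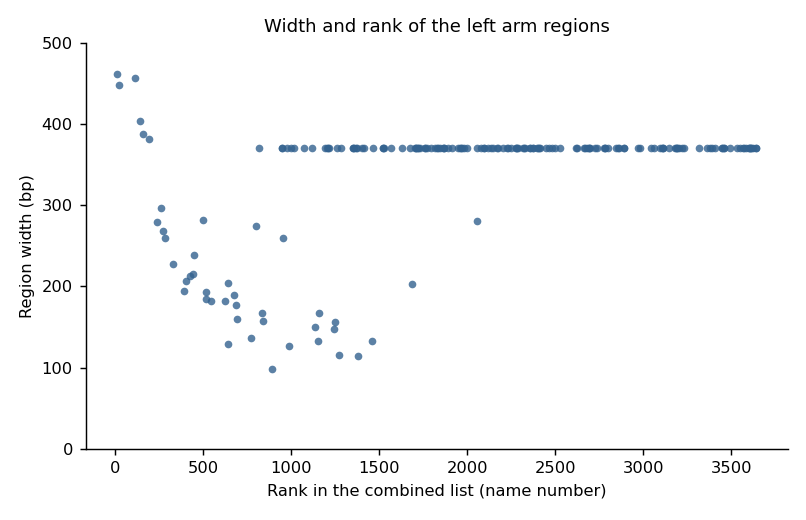
Width in bp (vertical axis) against rank in the combined list (horizontal axis) for each of the 187 left arm regions. Widths tend to decline from 462 bp at rank 13 to 98 bp at rank 888, with exceptions such as 282 bp at rank 501 and 5 regions of 370 bp at ranks 501 to 1000, and most regions beyond rank 1000 lie on the line at 370 bp.

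The authors' score, whose scale the sources used here do not give, separated few of the regions. It stood at the combined list's maximum of 3.80 in all but 30 of the 187, or 16.0%, beside 14.2% of the whole list. Those 30 had scores of 2.43 to 3.34 and were the 30 regions of rank 3178 and beyond. In the replicates' own lists 82 left arm regions overlapped a peak of maximum score in replicate 1, or 43.9% (36.6% to 51.3%), against 265 or 58.5% (53.8% to 63.1%) on the rest of II and 51.3% of the whole list. In replicate 2 the maximum was reached by 159, or 85.0%, against 395 or 87.2% on the rest of II and 84.6% of the whole list. Both maxima together were held by 73 left arm regions (39.0%) and 251 on the rest of II (55.4%), beside 47.8% of the whole list.

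Left arm regions were unevenly spaced. Regions with at most 5 kb between them were joined into chains, and 95 of the 187 lay in chains of 3 or more, or 50.8% (43.4% to 58.2%), against 107 or 23.6% (19.8% to 27.8%) on the rest of II and 24.3% of the whole list. Chains of 6 or more numbered 7 in the left arm and held 66 regions, or 35.3%, and numbered 3 on the rest of II, where they held 23, or 5.08%, beside 5.64% of the whole list. At the other end, 72 left arm regions, or 38.5%, had no neighbour within 5 kb, against 51.7% on the rest of II and 52.1% of the whole list. The median distance to the nearest region was 2467 bp in the left arm and 5369 bp on the rest of II, and 31.0% of left arm regions had a neighbour less than 1 kb away, against 16.8% on the rest of II and 16.7% of the whole list. The arm was known to be crowded when it was chosen, so these values are a description.

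The arm also held many empty stretches. Of the 98 windows of 50 kb in the left arm 32 held no combined peak, or 32.7%, against 38 of 208 or 18.3% on the rest of II. The 4 windows with 10 or more peaks held 59 left arm regions, or 31.6%, against 0 on the rest of II, where the fullest window held 8, and 4.58% of the whole list. With the windows moved by 25 kb, 5 in the left arm and 1 on the rest of II held 10 or more. By bins of 500 kb the counts ran from 3 regions at 1500001 to 2000000 to 58 in the next bin. The first 3669 ranks of the replicates gave 1 and 51 peaks in those same bins in replicate 1 and 3 and 53 in replicate 2.

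**Figure D3:**
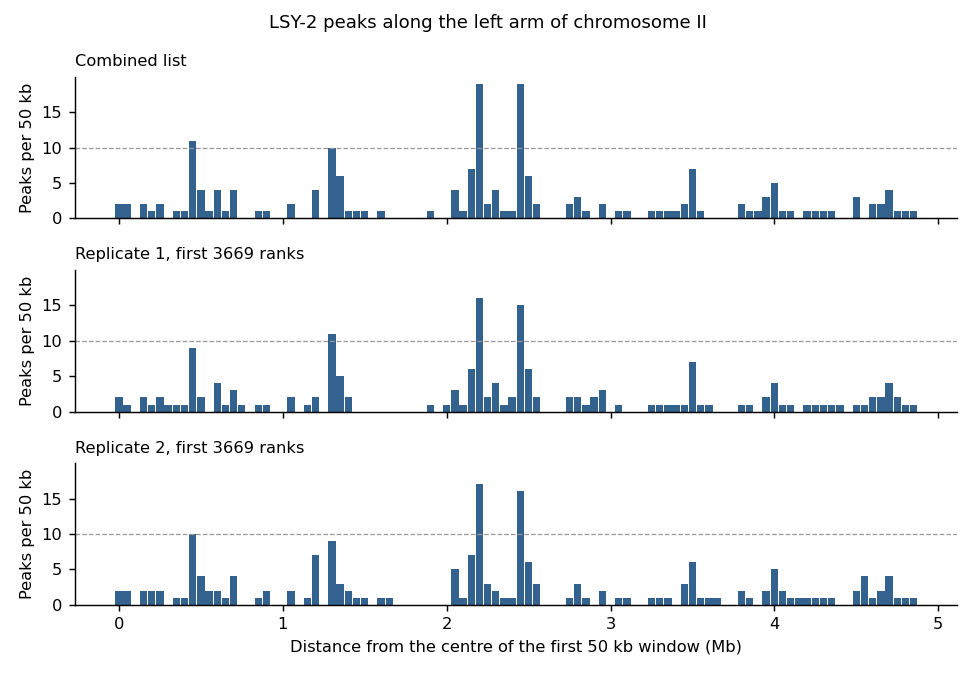
Number of peaks per 50 kb window (vertical axis) along the left arm (horizontal axis, distance from the centre of the first window in Mb) in the combined list and in the first 3669 ranks of each replicate, with a dashed line at 10 peaks. The 2 fullest windows hold 19 combined peaks each, with 16 and 15 in replicate 1 and 17 and 16 in replicate 2.

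Much of the crowding lay in 1 stretch of 329 kb, II:2182753-2511453, which spans 5 of the 7 long chains and was picked out after its values were seen. It held 59 regions (38 of which are also among the 59 in the full windows), 31.6% of the 187 in 6.71% of the arm, or 179 per Mb against 28.0 per Mb over the other 128. The replicates had 52 of their 170 left arm peaks of rank 1 to 3669 in it in replicate 1, and 53 of 186 in replicate 2. Its regions had a median rank of 1996 against 1965 for the other left arm regions, but few were among the strongest. Of the 59, 1 ranked within 500, beside 16 of all 187 left arm regions (8.56%) and 13.6% of the whole list.

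The fullest chain, II:2451033-2479411, held 19 regions in 28.4 kb, with a median of 1387.5 bases between neighbours and at most 3196. Replicates 1 and 2 each had 15 peaks of rank 1 to 3669 there. Its best regions were those of rank 501, at II:2455976-2456257, of rank 622, at II:2470540-2470721, and of rank 642, at II:2462029-2462157. The region of rank 622 ranked 496 in replicate 1 and 952 in replicate 2, and that of rank 642 ranked 674 and 711. The samples parted at others: II:2458377-2458746 ranked 2445 in replicate 1 and 14596 in replicate 2, and II:2475682-2476051 ranked 4517 and 1249. Of the 19, 12 ranked within 3669 in both replicates.

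**Figure D4:**
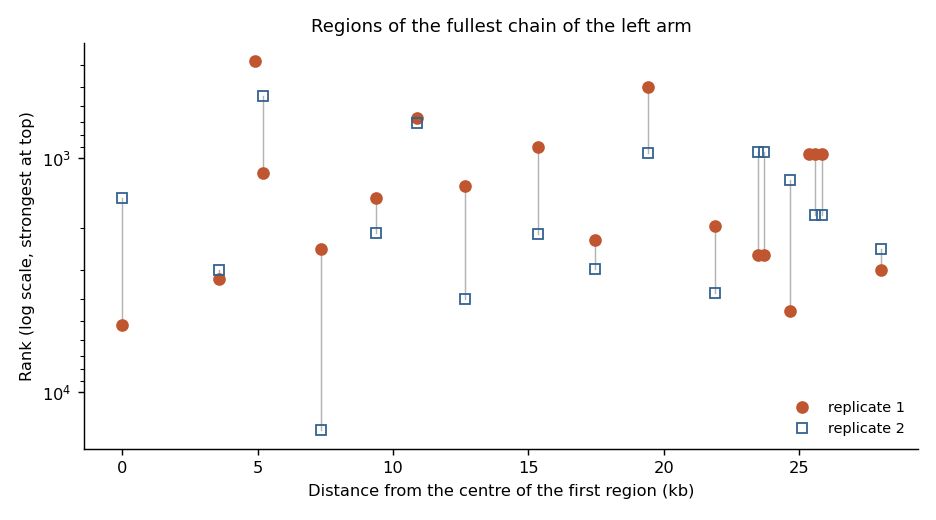
Rank in replicate 1 (filled circles) and replicate 2 (open squares) on a log axis with the strongest at the top, for the 19 regions of the fullest chain against distance from the centre of the first region (kb). Grey lines join the ranks of 1 region, and the 2 regions without a square overlap no peak of replicate 2.

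The next chains were II:2200171-2226575 and II:2240739-2253133, with 10 regions each. Regions lay a median of 2467 bases apart in II:2200171-2226575 and 466 bases apart in II:2240739-2253133. Neither held a region within rank 1000, the best being 1157 in the 26.4 kb chain and 1073 in the other. The chain of 8 at II:456409-463246 was stronger. It took up 6.84 kb, had a median rank of 871.5, and 5 of its 8 regions ranked within 1000, led by II:456409-456704 with ranks 241 and 298 in replicates 1 and 2. The chain of 7 at II:2182753-2194578 had a best rank of 815. Those of 6 were II:1320495-1330003, with a best rank of 239, and II:2502792-2511453, with one of 950.

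Left arm regions in long chains had a better median rank than lone ones, but a smaller share of them was among the strongest. In chains of 6 or more the median rank was 1900 and 47 of 66 regions, or 71.2%, ranked within 3669 in both replicates. Lone regions had a median rank of 2237, and 43 of 72, or 59.7%, did so. Some neighbours in long chains overlap and share their best peak in both replicates. The 47 are therefore not all separate observations, while lone regions have no such neighbours. In long chains 2 of the 66 ranked within 500, or 3.03%, against 8 of the 72 lone ones, or 11.1%. On the rest of II, lone regions had a median rank of 1522 and 18.8% of them ranked within 500. In the whole list the median of lone peaks was 1791 and 12.9% ranked within 500. As observed, the left arm's share of strong lone regions was below that of the rest of II and nearer that of the whole list. No interval was computed for these shares, which in the left arm rest on 2 chained and 8 lone regions. Long chains of the whole list had a median rank of 2006, worse than its lone peaks, with 5.80% within 500. Shares within 3669 in both replicates were 69.6% there and 68.5% of its lone peaks.

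Some of the crowding was within the width of a region. Neighbouring left arm regions overlapped in 8 cases, by 64 to 170 bases, with midpoints 180.5 to 244 bp apart, and involved 15 regions, or 8.02%, against 19 or 4.19% on the rest of II and 3.57% of the whole list. In 7 of the 8 cases both regions had the same best peak in each replicate, so they are not separate observations there. The 185 regions with a peak in replicate 1 rested on 177 different peaks, and the 185 with one in replicate 2 on 178. Conversely, 68 regions overlapped 2 or more peaks of a replicate, or 36.4%, against 30.9% on the rest of II and 28.9% of the whole list.

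The longest stretches without a left arm region measured 294 kb, after II:1628408, 254 kb, after II:3553929, and 180 kb, after II:2572175. The replicate lists were not empty there. The longest held 23 peaks of replicate 1 and 40 of replicate 2, of which 0 and 1 ranked within 3669.

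Nearly every left arm region was found in both ChIP samples. A peak of each replicate was overlapped by at least 1 bp in 183 of 187, or 97.9% (94.6% to 99.4%), against 448 of 453 or 98.9% (97.4% to 99.6%) on the rest of II and 99.2% of the whole list. The combined list was made from the replicates, so this share is no separate evidence of recurrence. Besides II:2455976-2456257, 3 regions lacked a peak in 1 list. II:2476406-2476775 (rank 2145) had rank 962 in replicate 1, and the nearest peak of replicate 2 was 95 bases away. II:2208379-2208748 (rank 3387) had rank 1967 in replicate 2, with a gap of 139 bases to the nearest peak of replicate 1. II:3303547-3303916 (rank 2690) had rank 3127 in replicate 2, with 256 bases to the nearest peak of replicate 1. In 3 of these 4 cases the region belonged to a chain of 10 or more. Chains of that size held 19, 10 and 10 of the 187 regions. With only 4 cases, no link between missing peaks and crowding can be read from this.

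A stricter criterion, a rank within 3669 in both replicates, was met by 124 left arm regions, or 66.3% (59.1% to 73.0%), against 336 or 74.2% (69.9% to 78.1%) on the rest of II and 68.6% of the whole list. These intervals overlap. It was met by all 16 left arm regions within rank 500 and by 80 of 81 on the rest of II. At ranks 501 to 1000 it was met by 95.5% of left arm regions and all 75 on the rest of II, beside 99.6% of the whole list. At ranks 1001 to 2000 the shares were 93.0% in the left arm and 95.9% on the rest of II, beside 95% of the whole list, and at ranks 2001 to 3000 they were 49.1% and 58.3%, beside 50% of the whole list. Beyond rank 3000 the order was the other way, with 7 of 37 left arm regions (18.9%) and 5 of 73 on the rest of II (6.85%), beside 10.6% of the whole list. The 7 include the regions of ranks 3459, 3532, 3550 and 3584. Each of these overlaps a neighbouring region and shares its best peak in both replicates, so the reversal rests in part on shared peaks. How many on the rest of II share a peak in this way was not counted.

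**Figure D5:**
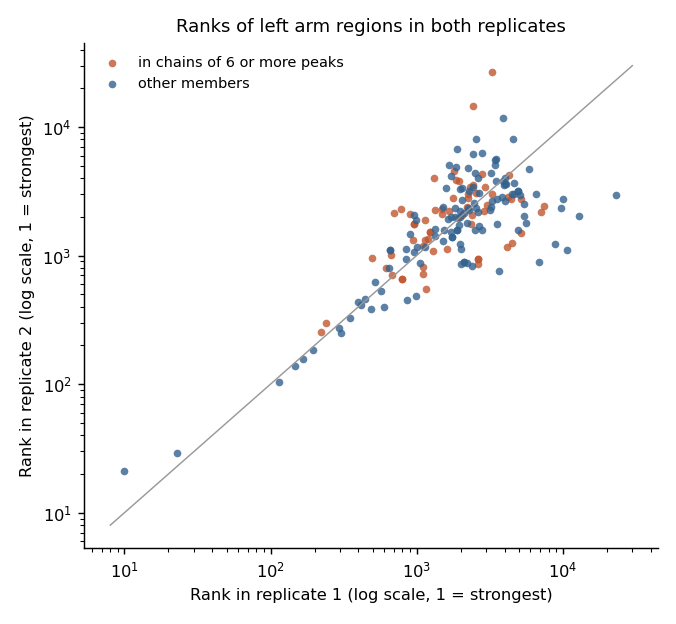
Rank in replicate 2 (vertical axis) against rank in replicate 1 (horizontal axis), both on log scales with 1 the strongest, for the 183 left arm regions found in both, with regions of chains of 6 or more marked and a line at equal ranks. Points lie near the line at the strongest ranks and spread widely beyond 1000, up to 26815 in replicate 2.

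Ranks in the 2 samples had a Spearman's rho of 0.610 over the 183 regions found in both, beside 0.742 over 448 on the rest of II and 0.662 over 3640 in the whole list. These are descriptions across regions of the same 2 libraries, some of which share a replicate peak. The median ratio of replicate 1 rank to replicate 2 rank was 0.998. Replicate 1 gave the better rank by over 2 times in 20 left arm regions, or 10.7%, beside 13.6% of the whole list, and replicate 2 did so in 29, or 15.5%, beside 13.9%. The regions most favoured by replicate 1 were II:2249549-2249918, with rank 3264 there and 26815 in replicate 2, II:2458377-2458746, II:1351069-1351438 (1878 and 6693), II:1922711-1923080 (2535 and 8061) and II:2246217-2246586 (703 and 2158). Those most favoured by replicate 2 were II:4517325-4517694, with rank 10677 in replicate 1 and 1095 in replicate 2, II:490315-490684 (23177 and 2952), II:506040-506409 (6910 and 895), II:1242583-1242952 (8865 and 1222) and II:555385-555754 (12959 and 2023). A rank over 10000 in some replicate was found for 6 left arm regions, or 3.21%, against 18 or 3.97% on the rest of II and 4.25% of the whole list.

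The best ranked overlapping peaks of the 2 replicates did not always share a midpoint. Where a region overlapped 2 or more peaks of a replicate (36.4% of left arm regions, 30.9% on the rest of II), they can be different peaks. II:4701407-4701776 and II:4701687-4701960 overlap 2 peaks of each replicate, and both were given 215.5 bp. The distances therefore do not measure placement alone. The midpoints of the replicate peaks lay a median of 48 bp apart in the left arm (quartiles 23.5 and 88) and 26 bp on the rest of II (10.5 and 66.25), beside 30 bp over the whole list. Rank by rank the order varied. The medians were 8.5 bp in the left arm and 13.5 bp on the rest of II at ranks 101 to 500, 25.5 and 21 bp at ranks 501 to 1000, 50 and 28 bp at ranks 1001 to 2000, 51 and 50 bp at ranks 2001 to 3000, and 85.5 and 54 bp beyond.

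The replicate lists, of 30000 peaks each, had 1333 peaks in the left arm in replicate 1 and 1427 in replicate 2. They covered 9.86% and 9.96% of it, against 11.3% and 10.9% of the rest of II, while the combined regions covered 1.26% of the left arm and 1.42% of the rest. Of the left arm peaks of rank 1 to 3669, 159 of 170 in replicate 1 overlapped some peak of replicate 2, or 93.5% (88.7% to 96.7%), against 440 of 463 on the rest of II. In the reverse direction it was 173 of 186, or 93.0%, against 436 of 453. Of the lowest 10000 ranks 34.0% of left arm peaks of replicate 1 and 34.9% of those of replicate 2 overlapped the other list, against 36.2% and 31.8% on the rest of II. The lowest ranks were nearly as dense in the left arm as elsewhere on II in replicate 2 (ratio 0.977, 0.875 to 1.09) and less so in replicate 1 (0.831, 0.739 to 0.933). The left arm share of strong peaks was thus below its share of weak ones in both samples: it held 40 of 194 peaks of II within rank 1000 in replicate 1 (20.6%) and 28.2% of those in the lowest 10000 ranks, and 20.7% and 31.6% in replicate 2, with 32.1% of the span.

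The boundary at base 4900000 fell into a gap of 50.1 kb. The last regions inside it were II:4791286-4791655 (rank 1353), II:4828066-4828435 (1520) and II:4851713-4851927 (443), and the first outside it were II:4902061-4902430 (rank 1514), II:4904240-4904609 (1182) and II:4942334-4942703 (3067).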

How the data were processed

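Embryo chromatin was fixed with 2% formaldehyde and quenched in 100 mM Tris, and 10% of the lysate was kept as input, per the labels' protocols. The deposited lists give each peak's position and score in build WS220. Per the file headers and line fields the authors used the caller SPP followed by IDR, which ranks how reproducibly peaks recur. Other upstream steps, such as the aligner and thresholds, are not given in the sources. Read depth is unknown, so intervals cover the counting of peaks. Whether the replicates were separate cultures is not stated.

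Samples were grouped by title. For each combined region the best ranked overlapping peak (at least 1 bp) of each replicate was taken. II was taken to run from base 166 to base 15276897, the outermost in the 3 lists. Shares have exact Clopper-Pearson 95% intervals. With 2 samples of 1 group no test across samples was possible, and no p-value is given. The overlap, rank, chain and density steps were tested on simulated data. There each region had at most 1 overlapping peak, so the choice of the best ranked among several was not tested. Named regions were the 20 best ranked, those missing from a replicate, those around the boundary, the 5 most unequal in rank each way, the longest chains and gaps, the widest region, and replicate peaks within rank 1000 in both that the combined list lacks. Other regions of chains, the narrowest region and the size of 6 for long chains were chosen after their values were seen. The regions and measures were chosen with earlier results of these data known. The software was Python 3.11.15 with numpy 2.4.6 and scipy 1.17.1, pandas 2.3.3 for tables and matplotlib 3.10.9 for plots.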

Additional observations from a re-analysis of the deposited data

How the results depend on the processing

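Of 30 recomputed values for 7 results, 20 stayed within the interval (or, for windows, within 1.5 times) of the value reported, and 29 kept the left arm on the same side of the rest of II. The exception was the share found in both replicates, 82.4% at a reciprocal overlap of 50% against 82.3% on the rest of II. With midpoints within 100 bp it was 83.4% against 90.7%, and in 1 replicate alone 98.9%. The density ratio moved to 0.648 with peaks within 5 kb merged and 0.692 in the better 50% of the list. It was 0.778 to 0.8696 in the lists of single replicates. It was 0.598 without the regions of the full windows, a setting bound to lower it, since the rest of II had 0 such windows and the spans were kept. The share ranked within 3669 in both moved to 48.7% at a reciprocal overlap of 50%, a stricter criterion, and was 79.1% to 84.0% with 1 replicate required. The share in chains was 33.2% with gaps of at most 2 kb and 59.4% with 10 kb, against 10.6% and 38.4% on the rest of II, and 46.5% to 48.4% in single replicates. A smaller gap can only lower the share in chains and a larger one can only raise it. Merging turned 187 left arm peaks into 97 and 453 on the rest of II into 317, which in itself lowers the density ratio. Requiring 1 replicate in place of both can only raise a share, and asking for a reciprocal overlap of 50% can only lower one. The cause of the other changes was not tested. The share within rank 1000 was 18.5% to 23.5% under its alternatives, of which the single replicate lists (21.0% to 23.5%) were chosen after seeing the data. Windows with 10 or more peaks numbered 3 in each replicate alone, against 1 on the rest of II in replicate 1 and 0 in replicate 2, and 5 when moved by 25 kb, against 1 on the rest of II. No paired analysis was possible because the inputs were not analysed here.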

Other observations

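1 place in the left arm ranked within 1000 in both replicates and overlapped no combined region. Replicate 1 had it at II:3616625-3617004 with rank 829, and replicate 2 at II:3616682-3617037 with rank 749. It lies within the empty stretch of 254 kb. In replicate 1 it was 1 of 27 left arm peaks that ranked within 1000 in both. On the rest of II 0 such places were found, among 126 peaks of replicate 1 that ranked within 1000 in both. Of the left arm peaks of rank 1 to 3669, 26 of 170 in replicate 1 and 30 of 186 in replicate 2 overlapped no combined region, against 67 of 463 and 65 of 453 on the rest of II. In 10 of the 26 and 11 of the 30 the other replicate had no overlapping peak of any rank. On the rest of II this held for 21 of the 67 and 14 of the 65.

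The strong regions that belonged to chains stood at their ends. Of the 16 left arm regions within rank 500, 7 lay in chains of 3 or more, and all 7 were the first or the last region of their chain. Over all left arm regions in such chains 30 of 95 were at an end, or 31.6%, but 5 of the 7 lay in chains of 3 to 5, where ends make up a larger share. Within the 6 chains that held a strong region, 12 of 29 regions were at an end, or 41.4%. On the rest of II 9 of 13 strong chained regions were at an end, or 69.2%, beside 51.0% of all regions of the chains that held them, and over the whole list 81 of 118, or 68.6%, beside 53.8%. The chain at II:4698240-4706742 had its regions of ranks 23 and 142 at its ends, with those of ranks 1194 and 800 between them. The pattern was noticed in these values and was not tested.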
